A study of Mus musculus with 6 samples.

Results

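Fras1, Frem1, Frem2 and Grip1 make up the Fraser complex and its adaptor, and 6 of the 45037 non-control probe sets on the array are annotated to these 4 of 18193 named genes. Fras1 and Grip1 have 2 probe sets each, and Frem1 and Frem2 have 1 each. All 6 were kept, whatever their values. The arrays profiled cells of the mouse genital tubercle, the outgrowth that becomes penis or clitoris, at 12.5 days post coitum (Theiler stage 20). Sorting had separated a reporter-positive fraction, labelled as urethral epithelium, which was compared with the reporter-negative remainder of the tubercle, with 3 arrays each. Replicates 1, 2 and 3 of either fraction came from pools of 3, 5 and 2 littermates, both sexes mixed, on a mixed strain background. Embryos of both fractions carried Shhtm1(EGFP/cre)Cjt, an EGFP/Cre fusion placed in the Shh locus that disrupts Shh on that chromosome, together with at least 1 copy of Gt(ROSA)26Sortm3(CAG-EYFP)Hze, a Cre-dependent yellow reporter. The reporter therefore marks cells in which the Shh locus was active and their descendants, and no array comes from embryos without these alleles.

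The Fraser complex anchors epithelium to the tissue beneath it while embryonic skin and urogenital organs form. Fras1 and Frem2 are large transmembrane proteins whose extracellular parts are deposited in the basement membrane, the sheet of matrix under an epithelium, and Frem1 is a secreted relative that joins them there. Grip1 is a cytoplasmic scaffold with PDZ domains that brings Fras1 and Frem2 to the basal side of the cell. The proteins stabilise one another in the basement membrane, and loss of any of these genes in mice gives embryonic blisters, with fused eyelids, fused digits or absent kidneys in many of the mutants. In people, mutations of FRAS1, FREM2 and GRIP1 cause Fraser syndrome, in which malformed genitalia are common. In several embryonic organs Fras1 and Frem2 are transcribed by epithelium, whereas Frem1 is also made by mesenchyme.

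The arrays were of unequal brightness. The median deposited signal of named probe sets was 0.34 to 4.73 in positive arrays and 2.15 to 8.84 in negative arrays, while hybridization controls averaged 1443 to 1884. Positive replicate 3 was the dimmest, with 24.6% of named probe sets brighter than its brightest unspiked control, against 44.0% to 59.3% in the other arrays. Its Spearman correlation with the others was 0.325 to 0.345 across named probe sets, compared with 0.716 to 0.862 among the remaining 5. Differences are therefore also given without it. The labelled epithelium carried its markers: all 10 simple epithelium markers, Shh among them, had a positive difference. Shh and Krt8, a keratin of simple epithelia, accounted for all 4 probe sets past the threshold in the 6 arrays. Because the Shh locus drove the reporter, Shh itself is no independent check of the sort. Summed normalized signal was 1165 to 2889 in positive and 64.9 to 71.3 in negative arrays for these 10 markers, Shh included. For 10 mesenchyme markers it was 2406, 162 and 392 in positive replicates 1, 2 and 3, against 2407 to 3081 in negative arrays, so positive replicate 1 lay next to the lowest negative array. Erythroid markers summed to 632 to 1516 in positive and 3211 to 6111 in negative arrays, and leukocyte markers to 60.2 to 139.6 in positive and 10.0 to 30.4 in negative arrays.

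Frem2, the transmembrane partner of Fras1, had the largest difference of the 4 genes. Its probe set 1457038_at had deposited signals of 30.1, 102.0 and 3.83 in positive replicates 1, 2 and 3, against 21.4, 19.2 and 2.74 in negative replicates 1, 2 and 3. Every one of these values exceeded the brightest unspiked control of its array, which was 4.47, 4.41 and 1.12 in positive and 5.36, 8.28 and 2.03 in negative arrays. Before scaling the groups thus overlapped, because the dim positive replicate 3 lay near negative replicate 3. Relative to its own array, Frem2 was brighter than 86.6%, 97.2% and 98.2% of all probe sets in positive replicates 1, 2 and 3, and than 75.6%, 70.5% and 61.9% in negative ones. On that scale positive replicates 2 and 3 stood together and positive replicate 1 lay between them and the negative arrays, with no overlap between the groups.

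**Figure D1:**
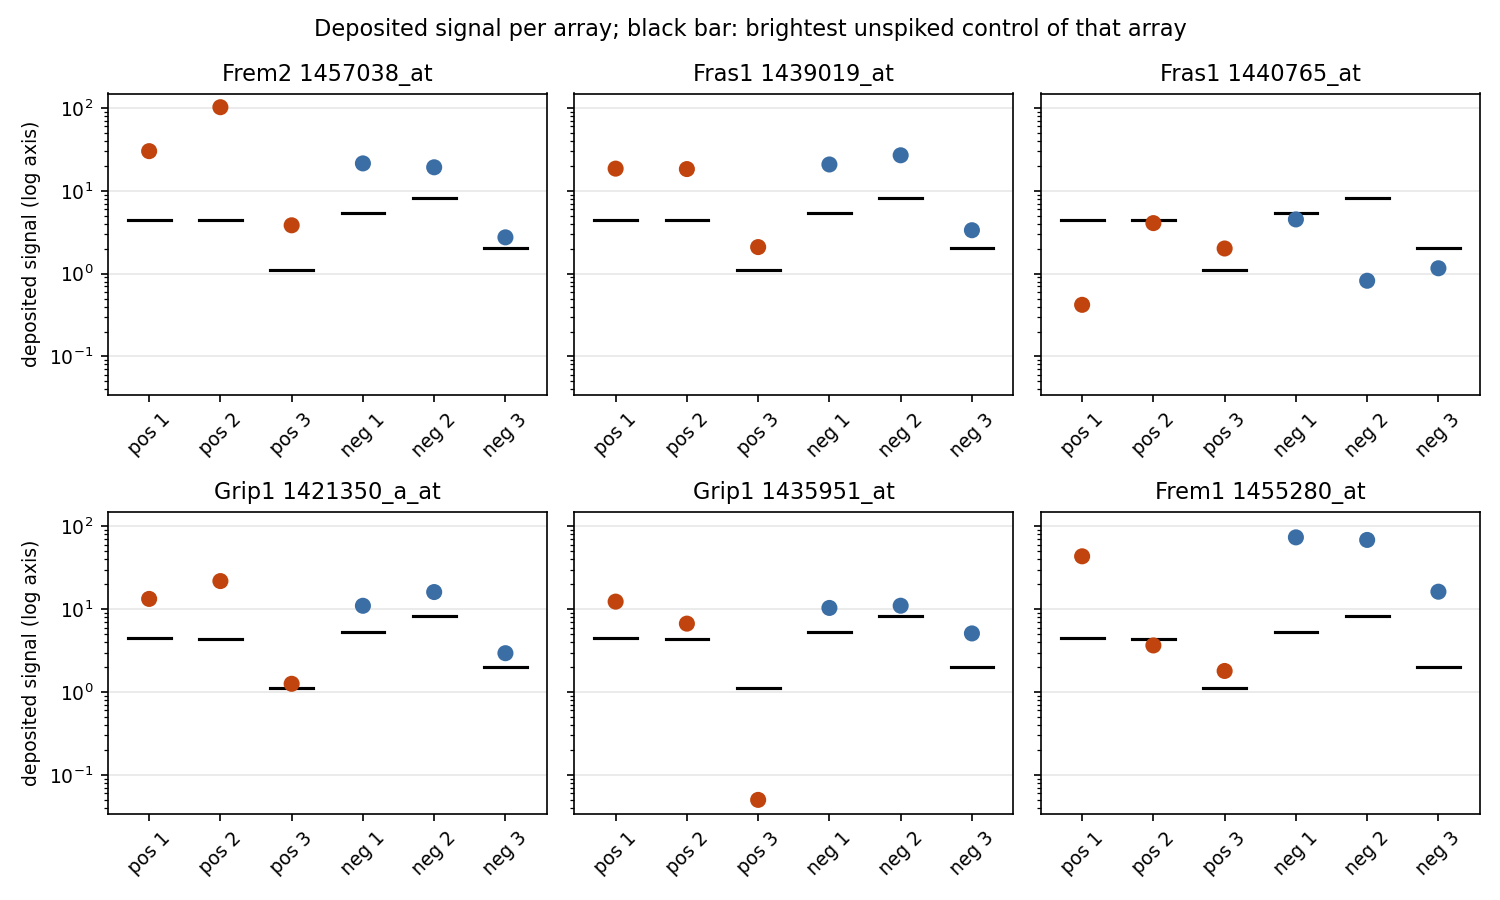
Deposited signal (log axis) of the 6 probe sets in positive (orange) and negative (blue) replicates 1 to 3, 1 panel per probe set, with a black bar at the brightest unspiked control of each array. Frem2 lay above that bar in all 6 arrays and peaked at 102.0 in positive replicate 2, Frem1 was under it in positive replicate 2 (3.66), and Fras1 1440765_at exceeded it in positive replicate 3 alone.

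After quantile normalization and transformation to log2(signal + 16), Frem2 measured 5.55, 7.46 and 8.02 in positive replicates 1, 2 and 3, against 4.85, 4.65 and 4.45 in negative replicates. The positive arrays averaged 7.01 ± 1.30 and the negative arrays 4.65 ± 0.20 (SD, n = 3 each). Their log2 difference was 2.36 (SE 0.59, 95% interval 1.04 to 3.68), equal to 5.14-fold on the log2(signal + 16) scale, which understates changes of dim probe sets. It did not pass the threshold (adjusted p = 0.764, unadjusted p = 0.00255, limma with Benjamini-Hochberg adjustment over 29373 probe sets). Only 0.0783% of tested probe sets had a larger difference. In the same comparison 0.0136% of probe sets passed the threshold, all higher in positive arrays, so few genes of any kind did. At an unadjusted p under 0.05 limma counted 3 of the 4 genes, Frem2, Fras1 and Grip1 with their brighter probe sets, and 4.34% of all probe sets.

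Without positive replicate 3, Frem2 averaged 6.71 ± 1.40 over 2 positive arrays and 4.74 ± 0.22 over 3 negative arrays (SD). Positive minus negative was then 1.97 (SE 0.42, 95% interval 1.08 to 2.86), with an adjusted p of 0.0533 (limma), just short of the threshold, where 0.381% of 29416 probe sets passed. With arrays weighted by their quality, it was 1.85 (SE 0.34) and passed (adjusted p = 0.000182, limma), where 2.58% of probe sets passed. Frem2 was therefore called in 1 of 17 alternatives, with an adjusted p of 0.000182 to 0.983 over them (limma). The sign was positive in all 17, but the size depended on the setting: 0.90 with median centring and 0.71 with the values as deposited. In both settings 16 was added to unscaled signals before taking log2. This understates differences in the dim positive replicate 3, where Frem2 read 3.83 and the median of named probe sets was 0.34. How much of the smaller size came from the added 16, and how much from scaling, was not tested. The median of all probe sets shifted by -0.16 and -0.35 in those settings, and Frem2 lay 1.06 above that median in both. This distance is the same by construction, since median centring only subtracts a constant from each array.

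Fras1, the transmembrane partner of Frem2, had a smaller difference. Its brighter probe set 1439019_at read 18.5, 18.3 and 2.09 as deposited in positive replicates 1, 2 and 3, against 20.8, 26.8 and 3.34 in negative replicates. Each positive array was thus below the negative array of the same number before scaling, although the pools are not known to be paired. Normalized log2 signals were 5.10, 5.46 and 6.48 in positive arrays, against 4.83, 4.83 and 4.57 in negative arrays. The groups did not overlap after normalization, and positive replicate 3, the dim array, stood highest.

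The Fras1 means were 5.68 ± 0.72 in positive and 4.74 ± 0.15 in negative arrays (SD, n = 3 each). They differed by 0.94 on the log2 scale (SE 0.41, 95% interval 0.03 to 1.84, adjusted p = 0.764, limma). Without positive replicate 3 the difference was 0.59 (SE 0.27, adjusted p = 0.626, limma). The difference was 0.02 with median centring and -0.17 with the values as deposited, where the constant was again added to unscaled signals, as for Frem2. Fras1 lay 0.18 above the median of all probe sets in both, again the same by construction. The negative sign appeared only with the values as deposited, where the median of all probe sets was at -0.35. Fras1 was not called in any of 17 alternatives. The second Fras1 probe set, 1440765_at, was above the brightest unspiked control in 1 array of 6, positive replicate 3, where it read 2.01. It was not above background in the other 5 arrays, so no fold is given. Normalized means for it were 4.92 ± 1.22 in positive and 4.16 ± 0.10 in negative arrays (SD, n = 3 each), and the groups overlapped. Without positive replicate 3 its difference was 0.07 (SE 0.16).

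Grip1, the intracellular adaptor, gave different values with its 2 probe sets. The probe set 1421350_a_at read 13.3, 21.9 and 1.26 in positive replicates 1, 2 and 3 and 11.0, 16.1 and 2.95 in negative ones as deposited. Its normalized log2 signals were 4.86, 5.65 and 5.15 in positive arrays, against 4.50, 4.58 and 4.49 in negative arrays. The groups did not overlap, and positive replicate 2 was highest. The means of 5.22 ± 0.40 in positive and 4.52 ± 0.05 in negative arrays (SD, n = 3 each) differed by 0.70 (SE 0.31, 95% interval 0.00 to 1.40, adjusted p = 0.764, limma).

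Without positive replicate 3 the difference of this Grip1 probe set was 0.80 (SE 0.28, adjusted p = 0.419, limma). The difference for the gene was positive in all 17 alternatives, among them the mean of both Grip1 probe sets, and called in none. It came to 0.27 with median centring and 0.07 with the values as deposited, where the constant was again added to unscaled signals. The other probe set, 1435951_at, read 12.4, 6.71 and 0.05 in positive arrays and 10.4, 11.0 and 5.11 in negative arrays, with positive replicate 3 below its background. Its normalized difference was -0.09 (SE 0.28, 95% interval -0.72 to 0.54, adjusted p = 0.932, limma), and 0.17 (SE 0.25) without positive replicate 3. The groups overlapped for it, and the mean of both Grip1 probe sets differed by 0.30 (SE 0.20). The difference of Grip1 thus rested on 1 of its 2 probe sets.

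Frem1, the secreted member, had the only negative difference among the brighter probe sets of the 4 genes. Its probe set 1455280_at read 43.6, 3.66 and 1.80 as deposited in positive replicates 1, 2 and 3, against 73.8, 68.7 and 16.3 in negative replicates. In positive replicate 2 this was under the brightest unspiked control of 4.41, and in the other 5 arrays above it. Normalized log2 signals were 5.95, 4.37 and 5.90 in positive arrays, against 5.88, 5.53 and 5.97 in negative arrays. Positive replicate 2 alone lay below the negative arrays, and positive replicates 1 and 3 lay within their range.

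The Frem1 means were 5.41 ± 0.90 in positive and 5.79 ± 0.24 in negative arrays (SD, n = 3 each), and the log2 difference of -0.39 (SE 0.48, 95% interval -1.45 to 0.68, adjusted p = 0.818, limma) did not pass. It was -0.69 (SE 0.41, adjusted p = 0.730, limma) without positive replicate 3, and it turned to 0.14 (SE 0.46) without positive replicate 2. With median centring it was -0.99 (SE 0.61) and with the values as deposited -1.19 (SE 0.78), neither past the threshold. Relative to the median of all probe sets Frem1 was at -0.84 in both settings, also by construction. In positive replicate 3 the deposited Frem1 signal of 1.80 was below that of every negative array. Within that array Frem1 was brighter than 89.9% of probe sets, against 86.3% to 90.6% in negative arrays.

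Of the 4 genes, Frem2, Fras1 and Grip1 had all positive arrays above all negative arrays with their brighter probe set, which held for 5.63% of 29373 probe sets. None had all positive arrays below all negative ones, which held for 6.67%. The median difference of the 4 genes was 0.82, beside -0.03 over 14071 genes by their brightest probe set.

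**Figure D2:**
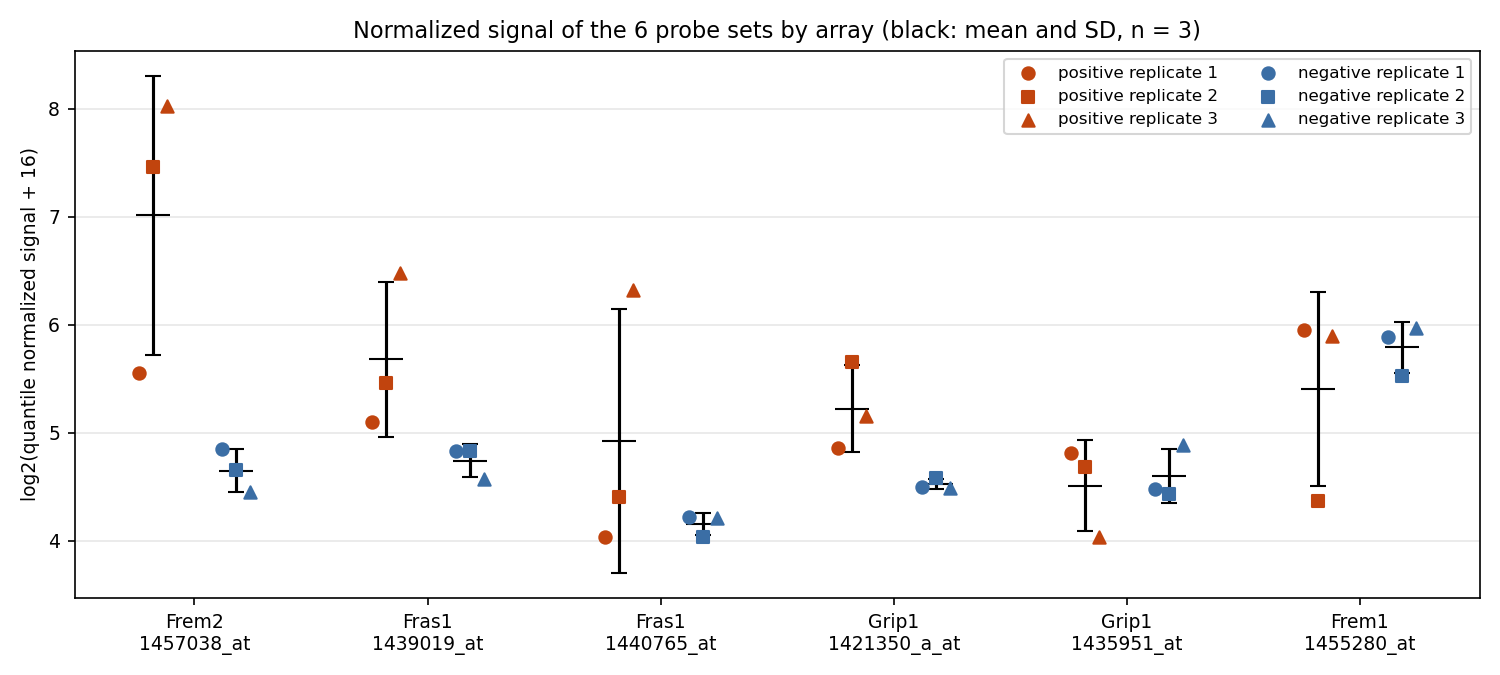
Normalized log2(signal + 16) of the 6 probe sets in positive (orange) and negative (blue) arrays, with a marker shape for each replicate and the mean and SD (n = 3) in black. Frem2 had means of 7.01 and 4.65 with no overlap, the brighter Fras1 and Grip1 probe sets did not overlap either on this scale (with values as deposited Fras1 was at -0.17, where the median of all probe sets was -0.35), and Frem1 overlapped.

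In ratios between probe sets of 1 array, any scale factor common to that array cancels. Only their change between arrays can be read, since probe sets differ in how strongly they bind. The ratio of Frem2 to Fras1 was 1.63, 5.58 and 1.83 in positive replicates 1, 2 and 3, against 1.03, 0.716 and 0.820 in negative replicates. All positive arrays were above all negative arrays, with a mean log2 difference of 1.59. A ratio to Fras1 separated the groups in this direction for 1.2% of probe sets.

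Frem2 to Grip1 was 2.26, 4.66 and 3.04 in positive arrays, against 1.94, 1.19 and 0.929 in negative arrays, a mean log2 difference of 1.30 without overlap, which 0.657% of probe sets also showed against Grip1. Frem1 was not above background in positive replicate 2, so ratios to it are lower bounds there, taken against the brightest unspiked control. Frem2 to Frem1 was 0.690, at least 23.1 and 2.13 in positive replicates 1, 2 and 3, against 0.290, 0.280 and 0.168 in negative replicates, a mean log2 difference of at least 3.76. The groups were again separate, and ratios to Frem1 as deposited separated them for 8.27% of probe sets. Fras1 to Frem1 and Grip1 to Frem1 also did not overlap, with mean log2 differences of at least 2.17 and 2.46. Grip1 to Fras1 overlapped, at 0.721, 1.20 and 0.603 in positive arrays and 0.531, 0.602 and 0.883 in negative arrays.

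For each of the 5 ratios without overlap a two-sided exact permutation test gave p = 0.1, the smallest value that 3 against 3 arrays allow (0.12 after adjustment over the 6 ratios), so none could pass 0.05. The 6 ratios share 4 probe sets and are not independent. Within the arrays Frem2 signal thus stood higher relative to Fras1, to Grip1 and to Frem1 in each positive array than in any negative array, without any scaling between arrays. Some of these signals were close to background, which does not cancel in a ratio. Grip1 read 1.26 against a background of 1.12 in positive replicate 3. In negative replicate 3 Frem2 and Grip1 read 2.74 and 2.95 against 2.03.

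**Figure D3:**
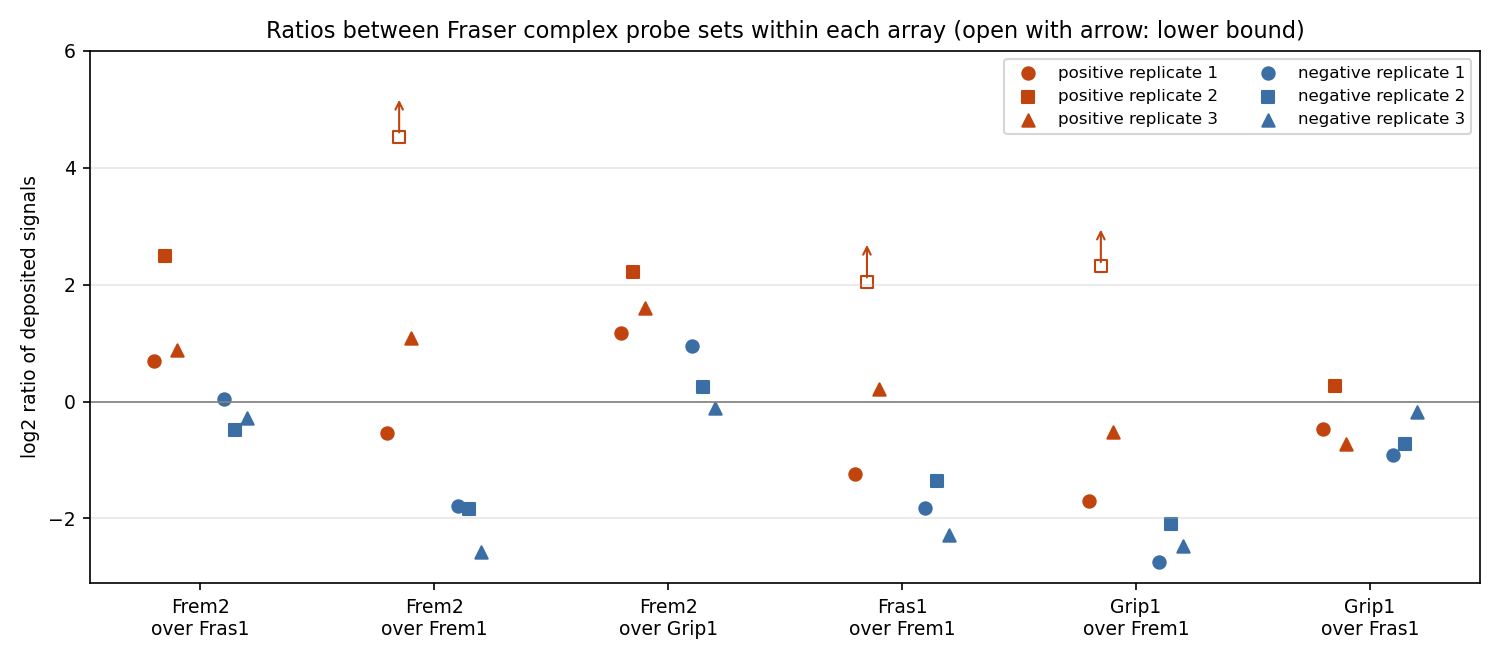
Log2 ratio of deposited signals for 6 pairs of brighter probe sets, in positive (orange) and negative (blue) replicates 1 to 3. Open symbols with an arrow are lower bounds, since Frem1 was not above background in positive replicate 2. The 3 ratios with Frem2 on top lay higher in every positive array, and Grip1 over Fras1 overlapped.

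Epithelial and mesenchymal markers also differed between the positive arrays. Against the negative mean, the median of the epithelium markers was 1.98, 3.06 and 2.94 in positive replicates 1, 2 and 3, and Frem2 was at 0.90, 2.81 and 3.37. With their brighter probe sets Fras1 was at 0.36, 0.72 and 1.74 and Grip1 at 0.34, 1.13 and 0.63. The median of the mesenchyme markers was -0.20, -2.91 and -2.61, and Frem1 was at 0.16, -1.43 and 0.11. Positive replicate 1 thus had the lowest Frem2, the least reduced mesenchyme markers and a Frem1 value within the negative range, while in positive replicate 3 the mesenchyme markers were low and Frem1 was not. The number of mesenchyme markers above background was 10, 7 and 4 in positive arrays and 10 in each negative array. The number of epithelium markers above background was 10 in each positive array and 7, 6 and 6 in negative arrays, and each marker of both lists was above background in at least 1 array. Of 6 surface ectoderm markers, 5, 5 and 4 were above background in positive arrays and 5 in each negative array, so both fractions carried them. Their differences ran from -0.58 for Krt10 to 2.31 for Krt15, with 4 of 6 positive and a median of 0.25. The part of carried-over cells in these values was not tested, and in such mixed fractions fewer cells of a type and less RNA per cell cannot be told apart.

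Relatives and matrix partners of the complex had no call. Frem3 is not analysed here. Of 10 measured genes 5 had a positive difference, and the median was 0.01 in the 6 arrays. Over the 9 genes that passed the filter without positive replicate 3 it was -0.19. None passed in either direction in either fit, and none had an unadjusted p under 0.05 in the 6 arrays (limma). The intracellular relative Grip2 differed by 0.07 (SE 0.48), and by -0.63 (SE 0.20, adjusted p = 0.352, limma) without positive replicate 3. Its normalized signal was 4.08, 4.17 and 6.02 in positive replicates 1, 2 and 3, against 4.65, 4.60 and 4.82 in negative replicates. The dim array alone thus placed it high. Grip2 was not above background in positive replicates 1 and 2, and above it in positive replicate 3 and every negative array. The difference without positive replicate 3 therefore rests on background readings in the positive arrays.

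Among matrix partners, Hmcn1, a hemicentin that acts with fras1 in zebrafish fins, differed by -0.65 (SE 0.42). Nephronectin (Npnt), the basement membrane ligand of integrin alpha 8, differed by -0.12 (SE 0.41), and the receptor chain Itga8 by -0.42 (SE 0.41). Vwa2, also called AMACO, which binds the complex, differed by 0.07 (SE 0.18), and the proteoglycan Cspg4, which shares repeats with the Fras1 family, by -0.26 (SE 0.19). The integrin chains Itgb1, Itga3 and Itgav differed by 0.27 (SE 0.55), 0.42 (SE 0.30) and -0.05 (SE 0.60). Gdnf, a growth factor for the kidney bud, differed by 0.24 (SE 0.15) and did not pass the filter without positive replicate 3. Cspg4 was above background in 0 positive and 2 negative arrays, Gdnf in 1 and 0, and Vwa2 in 1 and 1. No change in level is therefore read from Cspg4, Gdnf or Vwa2. Itgb1, Itgav and Npnt turned sign without positive replicate 3, to -0.42, 0.50 and 0.32, while Itga3 was at 0.20, Itga8 at -0.19, Hmcn1 at -0.36 and Vwa2 at 0.15. Further probe sets of Cspg4, Npnt, Itga8, Itgb1, Itga3 and Itgav had the opposite sign to the brightest one, so no direction is read from these 6 genes.

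Binding partners of Grip1 showed no call either. Of 7 measured genes 4 had a positive difference, with a median of 0.05, and none passed in the 6 arrays or without positive replicate 3, nor at an unadjusted p under 0.05 in the 6 arrays (limma). The largest positive differences were Gria3, a glutamate receptor subunit, at 0.53 (SE 0.38), the synaptic scaffold Ppfia1 at 0.29 (SE 0.36) and the kinesin Kif5b, which binds Grip1, at 0.26 (SE 0.68). The largest negative ones were the ephrin ligands Efnb2 at -0.65 (SE 0.64) and Efnb1 at -0.47 (SE 0.36), then Cspg4 as given above. Ephb2 is not analysed here. Gria3, Ppfia1, Kif5b, Efnb2 and Efnb1 were at 0.09, 0.07, 1.15, 0.03 and -0.23 without positive replicate 3, where none passed, so their order and the sign of Efnb2 depended on that array. Kif5b and Efnb1 had further probe sets of opposite sign. Gria3 was above background in 2 positive arrays and 1 negative array, and Kif5b, Efnb2 and Efnb1 were not above it in positive replicate 3.

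Core basement membrane genes likewise had none past the threshold. Of 20 tested genes 13 had a positive difference, and the median was 0.27 in the 6 arrays and 0.40 over 19 genes without positive replicate 3. At an unadjusted p under 0.05 limma counted 2 with a positive and 1 with a negative difference among these 20, beside 4.34% of all probe sets in either direction. Col18a1, whose C-terminus is endostatin, measured 6.29, 7.69 and 8.05 in positive replicates 1, 2 and 3, against 5.07, 5.69 and 6.37 in negative replicates, and differed by 1.63 (SE 0.56). Lamb1, a laminin beta chain, differed by 1.05 (SE 0.45) and the proteoglycan agrin (Agrn) by 0.86 (SE 0.47). Nid1, which links laminin to collagen IV, measured 6.56, 4.41 and 4.46 in positive arrays, against 7.23, 6.69 and 6.75 in negative arrays, a difference of -1.75 (SE 0.58). Nid1 was nearest the negative arrays in positive replicate 1, yet below each of them there. In positive replicates 2 and 3 Nid1 was not above background, at 4.14 and 0.78 as deposited, so its difference rests partly on background readings. Frem1, at 5.90 in positive replicate 3, was above background there and within its own negative range. Lama4 and perlecan (Hspg2) differed by -0.51 (SE 0.31) and -0.39 (SE 0.35). Lama4 was not above background in positive replicates 2 and 3, nor was Hspg2 in positive replicate 3. Agrn was at 0.48 and Hspg2 at -0.22 without positive replicate 3. Lamb1, Nid1 and Hspg2 each had 1 further probe set of opposite sign.

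Of the hemidesmosome and anchoring genes, which fasten the epithelial cytoskeleton to the same membrane, some passed in the fit without positive replicate 3. Of 7 tested genes 6 had a positive difference with a median of 0.73 in the 6 arrays, and none passed (3 at an unadjusted p under 0.05 in limma, beside 4.34% of all probe sets). Without that array 3 of 6 were higher and none lower, where 0.316% of probe sets passed as higher and 0.0646% as lower. Cd151, a tetraspanin bound to laminin receptors, measured 7.27, 8.81 and 7.90 in positive replicates 1, 2 and 3, against 5.71, 5.59 and 5.45 in negative replicates. Its difference was 2.41 (SE 0.47, adjusted p = 0.456, limma) in the 6 arrays and 2.53 (SE 0.42, adjusted p = 0.00733, limma) in the 5. The plakin Dst differed by 1.62 (SE 0.36, adjusted p = 0.627, limma) in the 6 arrays and by 1.55 (SE 0.28, adjusted p = 0.0185, limma) in the 5. Plectin (Plec) differed by 0.73 (SE 0.51) in the 6 arrays and by 1.44 (SE 0.31, adjusted p = 0.0497, limma) in the 5. Plec was not above background in positive replicate 3, nor was Dst in negative replicate 1. In the 6 arrays Itga6 differed by 1.23 (SE 0.56), Itgb4 by 0.59 (SE 0.25), Col17a1 by 0.20 (SE 0.23) and Col7a1 by -0.03 (SE 0.23). Itgb4 was above background in 1 positive and 0 negative arrays and was not fitted in the 5. Itga6 had a further probe set of opposite sign. Frem2, with 1.97 in the 5 arrays, lay between Dst and Cd151 in size and did not pass there.

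**Figure D4:**
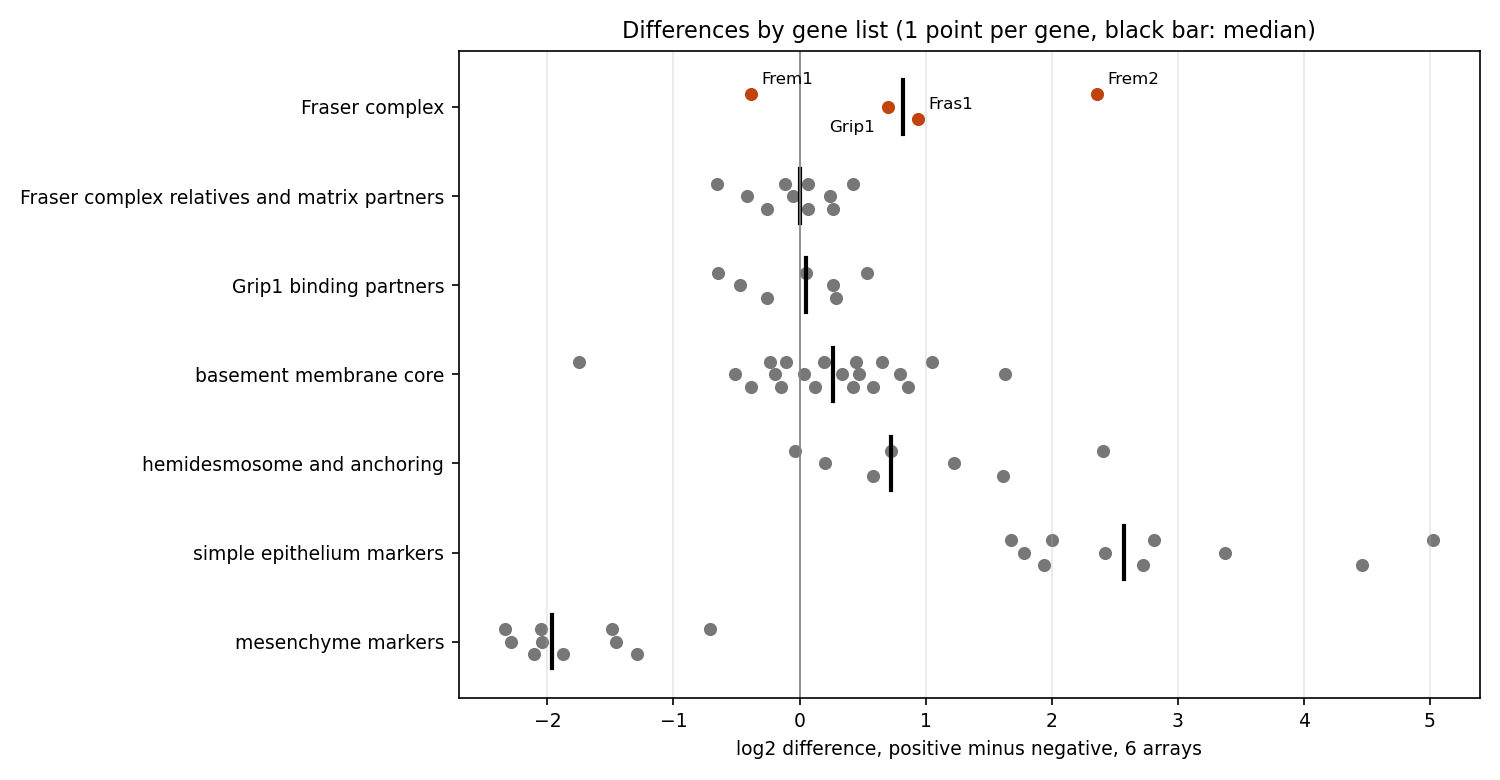
Log2 difference, positive minus negative over the 6 arrays, with 1 point per gene (brightest probe set) and a black bar at each list's median. The Fraser complex genes run from -0.39 for Frem1 to 2.36 for Frem2, relatives and matrix partners centre at 0.01, and epithelium and mesenchyme markers at 2.58 and -1.96.

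Profiles most like those of the 4 genes were taken as the highest Pearson correlations over the 6 arrays among 14070 other genes. For Frem2 these were Patj, an apical polarity protein, at 0.998, Mgp, the matrix Gla protein, also at 0.998, and the signalling ligand Wnt4 at 0.993, followed by 1810019D21Rik and Hsd17b3, both at 0.993. Without positive replicate 3 these 5 stayed at 0.987 to 0.996. Correlations above 0.95 with Frem2 were found for 148 genes, so these 5 are the top of a long list. Fras1 was closest to Prkag2 at 0.997, then Map7, Pced1a, Tbc1d5 and Zfp809, the last at 0.991, with 322 genes above 0.95. Grip1 was closest to Moxd1 at 0.995, then Arc, Cnot7, Rnf32 and Wfdc2, the last at 0.989, with 55 above 0.95.

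Frem1 was closest to Ets2 at 0.972, then Col6a2, Kcns2, Slc2a4 and Hrh2, the last at 0.945, with 4 genes above 0.95. Among the 4 genes themselves, Frem2 correlated at 0.929 with Fras1, at 0.886 with Grip1 and at -0.448 with Frem1, by their brighter probe sets. Without positive replicate 3 these values were 0.961, 0.991 and -0.879. With the other Grip1 probe set, 1435951_at, Frem2 correlated at -0.520, and at 0.130 without positive replicate 3. All such correlations rest on 6 or 5 arrays of 2 groups that share normalization, and they are given as descriptions.

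**Figure D5:**
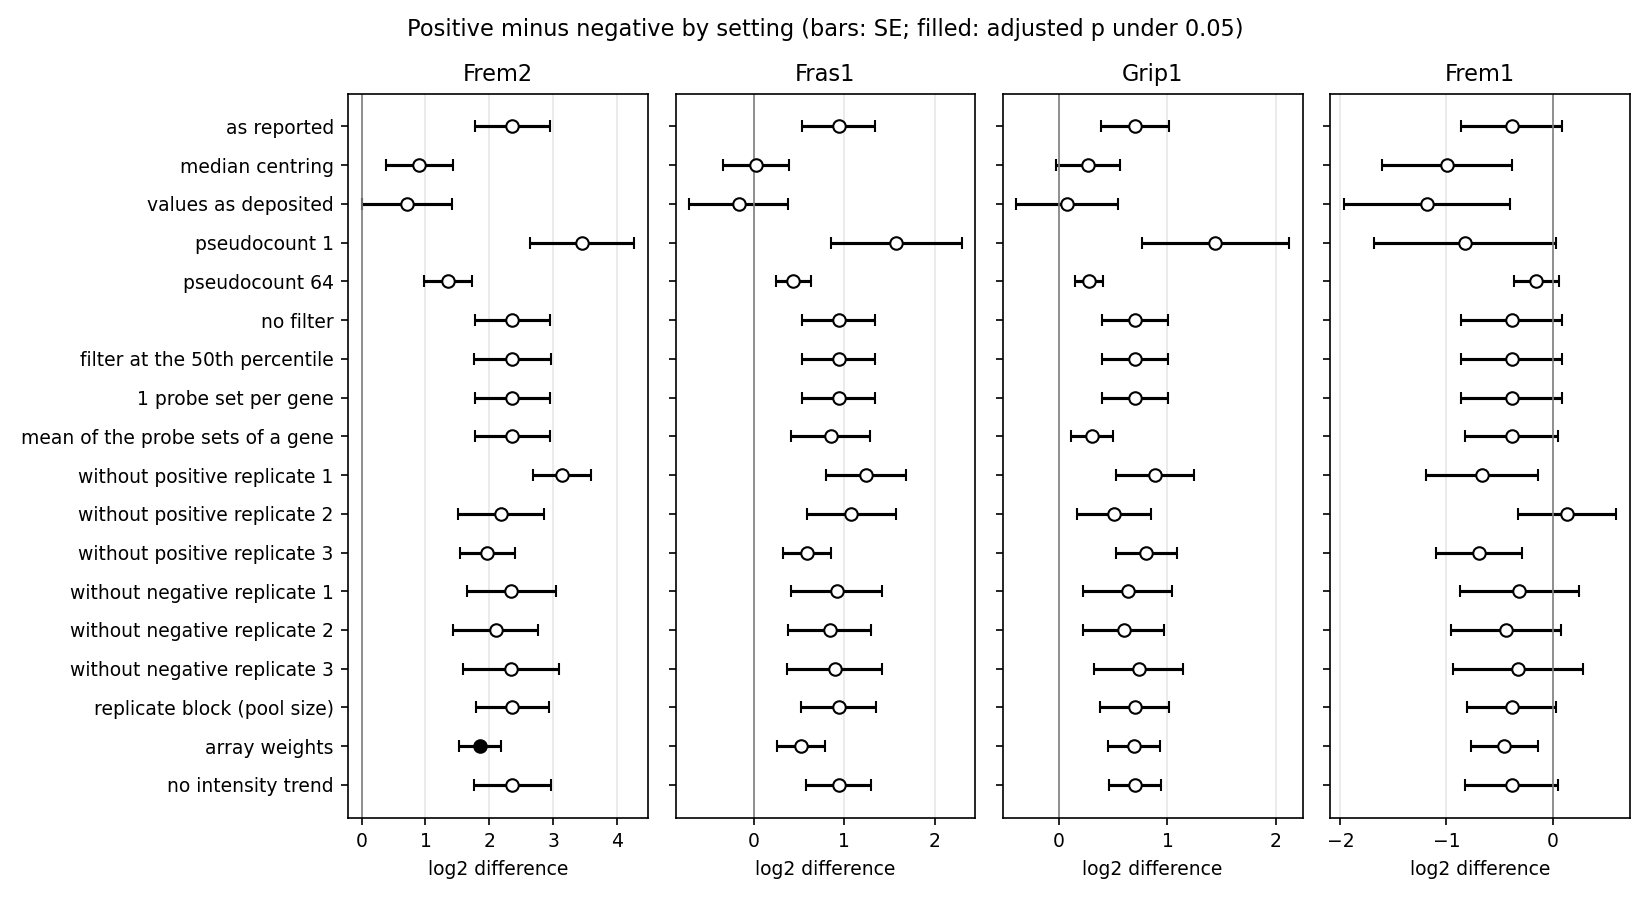
Log2 difference with its SE for the 4 genes under the reported setting and 17 alternatives, each panel with its own scale. Frem2 was positive in all of them and filled, meaning an adjusted p under 0.05, with array weights only. Fras1 was at -0.17 with values as deposited, 0.18 above the median of all probe sets, and Frem1 turned positive (0.14) without positive replicate 2.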

How the data were processed

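Biotin-labelled total RNA of sorted cells had been hybridized to Affymetrix mouse arrays, per the labels. The authors deposited a linear intensity for each probe set, apparently not scaled between arrays. GCOS is named for 1 of 6 samples in the submitters' processing notes, and for other steps the tool is not given in the sources used here. Genes come from the platform's probe table, with symbols updated through RefSeq (GRCm38.p6) for 34741 of 34945 probe sets with 1 gene. A further 932 had several genes and 9160 none, and these stayed unnamed.

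After removal of 64 controls, signals were quantile normalized with limma 3.58.1 (R 4.3.3) and transformed to log2(signal + 16). The settings with median centring and with values as deposited used the same transformation on signals that were not quantile normalized. Probe sets brighter on average than the lowest 30% of named ones were fitted in 1 model with an intensity trend (eBayes), and p-values were adjusted over all of them by Benjamini-Hochberg (threshold 0.05). All 6 Fraser complex probe sets passed that filter. A gene is represented by its brightest probe set over the 6 arrays. Background is the brightest of 27 unspiked bacterial controls of an array. The limma fit and its adjustment were tested on simulated log2 values. Normalization, the filter, the background rule and the choice of probe set were not part of that simulation. The number of arrays limits precision, and p-values measure the spread between arrays of different pools, which includes technical spread.

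Groups come from the labels, and replicate numbers follow accession order. Deviations from group means correlated at 0.122, 0.032 and 0.105 between positive and negative arrays of equal pool size. Between arrays of unequal pool size the correlations were -0.130 to 0.0665. Each positive array thus correlated most with the negative array of equal pool size, and the titles of such arrays carry adjacent numbers. The labels do not state a shared pool, so the arrays were not treated as paired, and whether they are is not known. The fit with a block for pool size is given below. The genes, lists and tests were chosen with earlier results of these data known, and the ratios after their values were seen. In the gene lists, members past the threshold in 6 or 5 arrays were named, otherwise up to 3 of the largest differences in each direction. Every relative and matrix partner and every measured hemidesmosome and anchoring gene was also named.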

Additional observations from a re-analysis of the deposited data

How the results depend on the processing

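None of Frem2, Fras1, Grip1 and Frem1 passed the threshold in the 6 arrays, and of 17 alternatives for each only array weights changed a call, with Frem2 at 1.85 (adjusted p = 0.000182, limma). That fit gave positive replicate 3 a weight of 0.109, against 0.650 to 4.50 for the other arrays. The sign of Frem2 and Grip1 was kept in all 17. Fras1 was at -0.17 with values as deposited, where the median of all probe sets was -0.35 and Fras1 lay 0.18 above it, and Frem1 turned to 0.14 without positive replicate 2. With 1 array left out, differences ranged from 1.97 to 3.14 for Frem2, 0.59 to 1.24 for Fras1, 0.51 to 0.89 for Grip1 and -0.69 to 0.14 for Frem1. A pseudocount of 1 gave 3.45 for Frem2 and a pseudocount of 64 gave 1.35. With the replicate block for pool size the differences were the same, 2.36, 0.94, 0.70 and -0.39, and no gene passed (lowest adjusted p = 0.718, limma). The count of probe sets past the threshold, 4 in the 6 arrays, all higher, was 41 with median centring (40 higher, 1 lower), 9 with a pseudocount of 1 (8 higher, 1 lower), 9 with no filter (5 higher, 4 lower) and 2 with 1 probe set per gene. With array weights it was 757, split into 387 higher and 370 lower. It was 0 with values as deposited, a pseudocount of 64, the mean of the probe sets of a gene, the replicate block and no intensity trend, where limma counted 921, 1171, 762, 1428 and 1524 at an unadjusted p under 0.05. Leaving out 1 array gave 0 to 112, with 0 without negative replicate 1 or 3, 14 without positive replicate 1 and 112 without positive replicate 3. The causes of these changes were not tested.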

Other observations

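Grip1os1, a transcript from the strand opposite Grip1, has 2 probe sets of its own that are not counted among the 6. The probe set 1432315_at read 3.60, 0.28 and 0.08 in positive replicates 1, 2 and 3, against 0.86, 0.47 and 0.08 in negative replicates, and was under the brightest unspiked control in every array. The probe set 1454160_at read 0.21, 0.21 and 1.86 in positive replicates, against 1.48, 0.53 and 1.61 in negative replicates, and exceeded that control in positive replicate 3 alone. The antisense transcript was therefore not detectable above background in 5 of the 6 arrays.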
